A study of Mus musculus with 12 samples.

Results

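The signaling lymphocytic activation molecule (SLAM) family is a small group of immunoglobulin-like receptors on leukocytes, and SAP, encoded by Sh2d1a, is the adaptor that most of them share in T cells. Its transcripts were followed here in OTII cells, transgenic CD4+ T cells that all recognize 1 peptide of OVA. The 8 genes, chosen by symbol, were the receptors Slamf1, Slamf6, Slamf7, Ly9, Cd84, Cd48 and Cd244a and the adaptor Sh2d1a, out of 40840 gene symbols in the count files. All 8 had a row in every library, and 7 passed the filter on low counts that left 13570 genes for testing. Cd244a did not pass.

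Donor OTII cells had been transferred into WT (C57BL/6 J) or Il6-/- recipients, so that the recipients and not the donor cells differed in Il6. Il6 had 0 to 5 counts per library, which does not check the labels, since it was deleted in the recipients. The recipients of all 4 groups were sensitized i.n. with 100 µg of house dust mite extract with added LPS (HDM LPS, endotoxin content about 250 EU per mg) and 5 µg of LPS-free OVA, and OTII cells were sorted from the mediastinal lymph node (mLN) on Day 3 or Day 5. The groups were WT Day 3, Il6-/- Day 3, WT Day 5 and Il6-/- Day 5, with 3 libraries each. An unsensitized group was not analysed here. The sample labels name blood as the tissue and leave out LPS, and they state neither the ages of the mice nor whether a library came from 1 mouse or from several. P values therefore measure the spread between these libraries, which may be partly technical.

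SLAM receptors work mostly by binding the same receptor on a neighboring cell. Their cytoplasmic tails carry immunoreceptor tyrosine-based switch motifs, in which a threonine is followed after any residue by the tyrosine that is phosphorylated and, after any 2 more residues, by a valine or isoleucine. SAP is little more than an SH2 domain that docks on these motifs, recruits the kinase Fyn and keeps inhibitory phosphatases away. In CD4 T cells SAP is known for sustaining contact with B cells, for help to germinal centers and for early IL-4, and its loss in humans causes X-linked lymphoproliferative disease. CD48 differs from the others, because it has no cytoplasmic tail, is held in the membrane by a lipid anchor, and serves as the ligand of CD2 and of CD244 (2B4).

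The switch motifs are shown because they are what joins the receptors to SAP. A search of the coding sequence of each canonical transcript (GENCODE vM39, GRCm39) found 2 motifs each in Slamf1, Slamf6, Ly9 and Cd84, 1 in Slamf7, 4 in Cd244a and 0 in Sh2d1a. The 9 tail motifs of the 5 tailed receptors that passed the filter follow as coding bases, 5′ to 3′ on the strand of the gene, with the codons of the threonine, the tyrosine and the last residue in capitals.
Cd84 motif 1, chr1:171712172-171712189, plus strand: ACAgtaTATgctgtaGTT
Cd84 motif 2, chr1:171713168-171713185, plus strand: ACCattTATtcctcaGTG
Slamf1 motif 1, chr1:171619907-171619924, plus strand: ACTattTATgcccaaGTA
Slamf1 motif 2, chr1:171627156-171627173, plus strand: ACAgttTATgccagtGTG
Slamf6 motif 1, chr1:171767004-171767021, plus strand: ACTgtgTATgcacaaGTC
Slamf6 motif 2, chr1:171769231-171769248, plus strand: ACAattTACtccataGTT
Ly9 motif 1, chr1:171421480-171421497, minus strand: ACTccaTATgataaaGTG
Ly9 motif 2, chr1:171421006-171421023, minus strand: ACAatcTACtgctctGTG
Slamf7 motif 1, chr1:171463895-171463912, minus strand: ACAtttTATtccactGTG

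The last motif ended 5 residues before the end of the protein in Slamf1 and 26 to 30 residues before it in the other 4 receptors. Where there was a pair, its first motif ended 52 to 64 residues before the end. Cd48 also held 1 match, at residues 105 to 110 of 240. CD48 has no tail, so that match lies in its extracellular part and is a description of letters only.

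Between 16125947 and 26111657 reads per library fell on genes. T cell mRNA dominated: the 8 genes listed as CD4 T cell markers summed to 6070 to 12200 CPM (counts scaled to the size of the library) in each library. Of these, Cd4 itself had 862 to 1280 CPM as group means, and genes such as Trac and Cd3e are not particular to CD4 T cells. The sums were 5.93 to 12.2 CPM for 10 B cell and plasma cell markers and 11.6 to 47.1 CPM for 11 myeloid and dendritic cell markers. The 10 NK cell and CD8 T cell markers summed to 64.4 to 115 CPM, most of it Cd8b1 and Klrb1c, and Klra8 and Klra4 were at 0 in all libraries. In bulk libraries, fewer cells that express a gene and less RNA per cell cannot be told apart.

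Compared between genes per kilobase of exon (FPKM, CPM divided by the length of all annotated exons together), the receptor pool was led by its tailless member. In WT on Day 3, Cd48 stood at 228 ± 11.6 FPKM (SD, n = 3 here and in all groups), Slamf6 at 60 ± 0.704, Ly9 at 48.6 ± 1.06, Cd84 at 10.1 ± 0.344, Slamf1 at 2.84 ± 0.111 and Slamf7 at 0.408 ± 0.152. The adaptor Sh2d1a stood at 58.5 ± 4.26 FPKM, level with Slamf6. No library of 1 receptor crossed into the range of the next in this order in any group, and the only neighbors that overlapped were Slamf6 with Sh2d1a in WT on Day 3 and in both genotypes on Day 5, and Ly9 with Sh2d1a in Il6-/- on Day 3. Of the summed FPKM of the 7 receptors, Cd48 took 62 to 67.2% as group means, Slamf6 16.4 to 19.6%, Ly9 12.3 to 13.9% and Cd84 2.24 to 4.37%.

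The place of Sh2d1a in this order depends on the length used, a choice added after the values were seen. Its annotated exons span 5.87 kb together, whereas its canonical transcript has 0.952 kb. With canonical lengths Sh2d1a came to 361 FPKM in WT on Day 3, above Cd48 at 276, and it led in 3 of the 4 groups, while its libraries overlapped those of Cd48 in Il6-/- on Day 3. Cd84 came to 46.4 FPKM with that length in place of 10.1, and on Day 5 its mean lay above that of Ly9 in both genotypes (84.2 against 68 in WT, 78.3 against 68.7 in Il6-/-). The order Cd48, Slamf6, then Ly9 and Cd84, then Slamf1 and Slamf7 held with both lengths. Fold changes of single genes between groups, below, do not depend on a length, whereas the ratios and shares built from FPKM do.

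**Figure D1:**
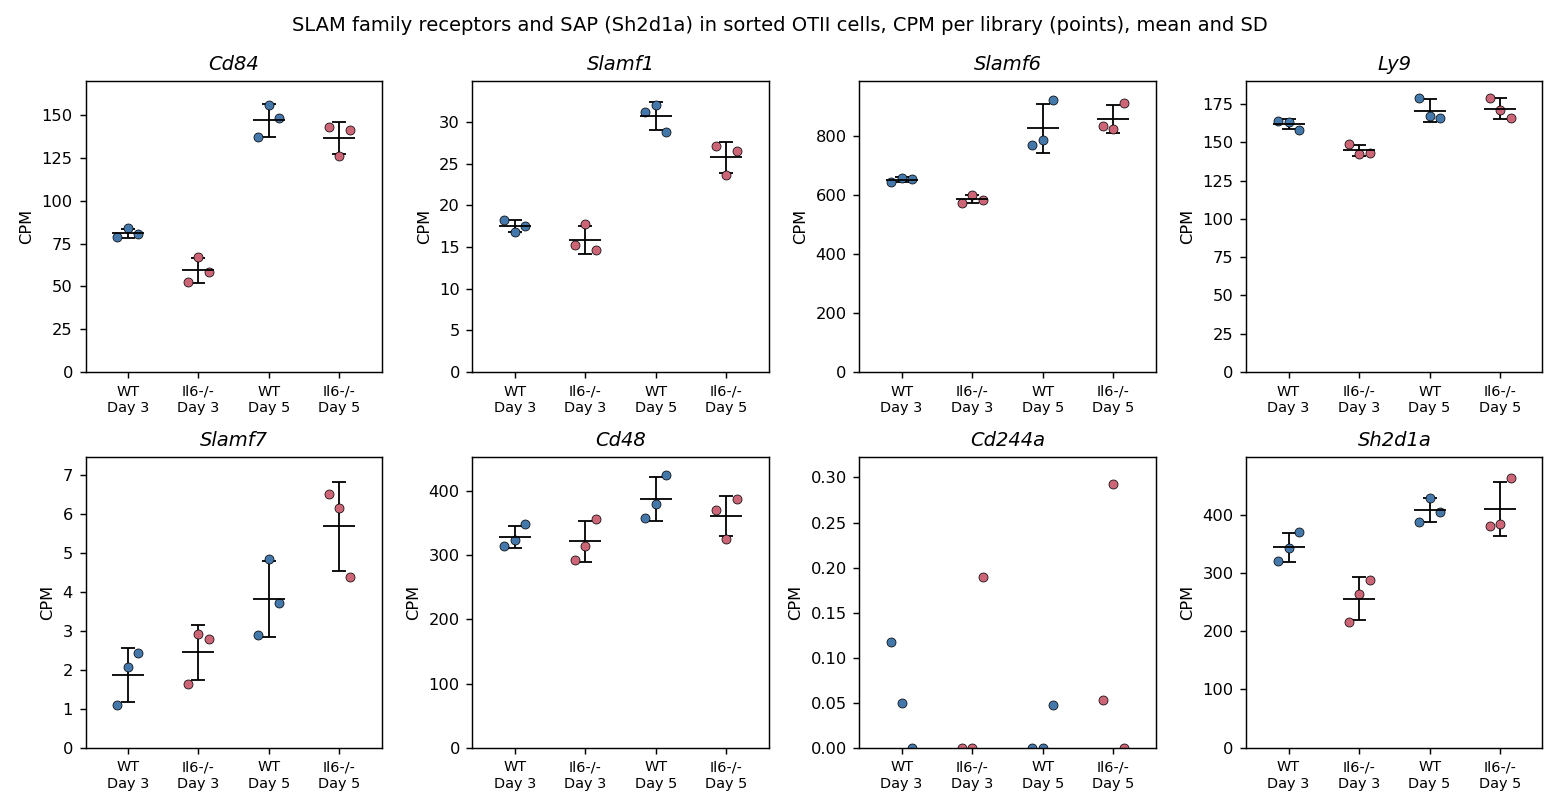
CPM of each gene (y axis, from 0, own scale per gene) in the 4 groups (x axis), with 1 point per library, blue for WT and red for Il6-/- recipients, and the mean with SD as bars (points alone for Cd244a). Cd84 and Sh2d1a are lower in all 3 Il6-/- libraries than in any WT library on Day 3, and overlap on Day 5, while Cd244a stays below 0.3 CPM.

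The first question is whether priming without IL-6 in the recipient changed these transcripts. On Day 3, 2 of the 7 tested genes passed an FDR under 0.05 over all genes, the receptor Cd84 and the adaptor Sh2d1a, and both were lower in OTII cells from Il6-/- recipients. Over all genes tested, 6.19% were called lower and 7.52% higher. The median log2 fold change of the 7 was -0.15, against 0.01 over all genes.

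Cd84, a homophilic receptor known for long-lasting contacts of helper T cells with B cells, had 78.6, 84 and 80.3 CPM in the WT libraries of Day 3. In the Il6-/- libraries it had 52.4, 66.9 and 58.5 CPM. Every Il6-/- library lay below every WT library. The log2 fold change was -0.45 (SE 0.09, 95% interval -0.65 to -0.25, edgeR quasi-likelihood FDR 0.0049), which is 0.732 of the WT level. Cd84 was called in every one of 12 fits that each left out 1 library, with log2 fold changes of -0.54 to -0.37 and an FDR of at most 0.033.

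Sh2d1a, the adaptor itself, had 320, 342 and 370 CPM in the WT libraries of Day 3 and 215, 264 and 288 CPM in the Il6-/- libraries. Here, too, the groups did not overlap. Its log2 fold change was -0.43 (SE 0.11, 95% interval -0.65 to -0.2, FDR 0.015 by the same test), or 0.744 of the WT level. This call was lost without WT replicate 2 (FDR 0.051), without WT replicate 3 (FDR 0.073) or without Il6-/- replicate 1 (FDR 0.079), and held in the other 9 fits of that kind, with log2 fold changes of -0.52 to -0.32 over all 12. Reads were counted without regard to strand, and 25% of the exon bases of Sh2d1a overlap exons of Tenm1 on the opposite strand. Tenm1 had 0 to 8 counts per library on Day 3, against 4068 to 8196 for Sh2d1a. Reads in the shared bases may have been left out as ambiguous, and the counts of Tenm1 do not show how many. The shared bases remain in the exon length used for FPKM, so the FPKM of Sh2d1a may be too low.

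Neither change reached 2-fold, and neither gene ranked near the top of the comparison. By p value Cd84 was number 589 and Sh2d1a number 1023 of the 13570 genes tested.

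Ly9 (CD229), another homophilic receptor, and Slamf6 (Ly108), which acts in adhesion of T cells to B cells, also had groups that did not overlap on Day 3, without passing the threshold. Ly9 had 164, 163 and 158 CPM in WT against 149, 142 and 143 CPM in Il6-/-, a log2 fold change of -0.16 (SE 0.07, FDR 0.14). Slamf6 had 645, 660 and 654 CPM against 574, 601 and 584 CPM, a log2 fold change of -0.15 (SE 0.08, FDR 0.2). The Il6-/- level was 0.895 of the WT level for Ly9 and 0.898 for Slamf6. Groups without overlap were common in this comparison, at 36.2% of all genes tested, so that 4 of 7 is to be read against that share. When the 6 libraries of Day 3 were fitted alone, both genes passed (FDR 0.031 for Ly9 and 0.023 for Slamf6), and Ly9 also passed without scaling (0.049). Over the other alternatives that kept all libraries the FDR went up to 0.44 for Ly9 and 0.36 for Slamf6.

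The remaining receptors overlapped between the genotypes on Day 3. Slamf1 (CD150), through which SAP and Fyn promote IL-4 in T cells, had 18.2, 16.8 and 17.5 CPM in WT against 15.2, 17.8 and 14.6 CPM in Il6-/- (log2 fold change -0.15, SE 0.11, FDR 0.45). Cd48 had 315, 324 and 348 CPM against 293, 314 and 357 CPM (-0.03, SE 0.09, FDR 0.87), with a 95% interval of -0.23 to 0.16. Slamf7 (CRACC), which signals through EAT-2 more than through SAP, was low and the widest in spread, with 28 to 45 counts per library in WT and 31 to 59 in Il6-/-. Its 1.09, 2.08 and 2.44 CPM in WT and its 1.64, 2.92 and 2.8 CPM in Il6-/- gave a log2 fold change of 0.41 (FDR 0.5) with a 95% interval of -0.33 to 1.14, the widest of the 7.

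Markers of the sorted cells moved in the same comparison, in which 6.19% of all genes tested were called lower and 7.52% higher. On Day 3, 3 of the 8 CD4 T cell markers were called lower in Il6-/- (Trac -0.34, Cd28 -0.48 and Lat -0.46 on the log2 scale, FDR 0.0093, 0.0018 and 9.9e-04) and 0 higher, and the sum of the 8 was 6670 to 7850 CPM in WT and 6070 to 6170 CPM in Il6-/-. The NK cell and CD8 T cell markers summed to 64.4 to 75.6 CPM in WT and 84.7 to 115 CPM in Il6-/-, with 1 of 5 tested called higher (Klrb1c, log2 fold change 2.11, FDR 7.7e-06), while Ncr1 had at most 1 count in any library. Of the 4 tested B cell and plasma cell markers, 1 was called lower, Pax5, which had at most 55 counts in any library (-2.26, FDR 0.039). The part of these markers in the lower Cd84 and Sh2d1a was not tested.

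By Day 5 none of the 7 genes passed between the genotypes with edgeR, DESeq2 or limma-voom, 1 had an unadjusted p under 0.05, and 4.61% of all genes tested were called. Sh2d1a had 388, 429 and 405 CPM in WT against 381, 384 and 463 CPM in Il6-/- (log2 fold change 0.01, 95% interval -0.22 to 0.23). Cd84 had 137, 156 and 148 CPM against 143, 126 and 141 CPM (-0.1, interval -0.3 to 0.09). The libraries of both genes overlapped between the genotypes on this day. The intervals do not reach the fold changes of Day 3 but overlap the intervals of that day, so they do not show that the days differ. Of the markers, Cd3d was called lower in Il6-/- on Day 5 (-0.37, FDR 0.037), as was Klrb1c (-0.6, FDR 0.05 when rounded).

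Slamf1 was the exception to the overlap on Day 5. Its 31.2, 32 and 28.8 CPM in WT all lay above the 27.1, 23.6 and 26.5 CPM in Il6-/- (log2 fold change -0.25, SE 0.11, p 0.035, FDR 0.21 by edgeR). Among all genes tested 19.6% did not overlap on Day 5. Slamf7 had 2.9, 4.83 and 3.71 CPM in WT against 6.51, 6.15 and 4.37 CPM in Il6-/- (0.57, SE 0.32, FDR 0.36). Slamf6, Ly9 and Cd48 had log2 fold changes of 0.05, 0.01 and -0.1, with an FDR of 0.61 or more.

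**Figure D2:**
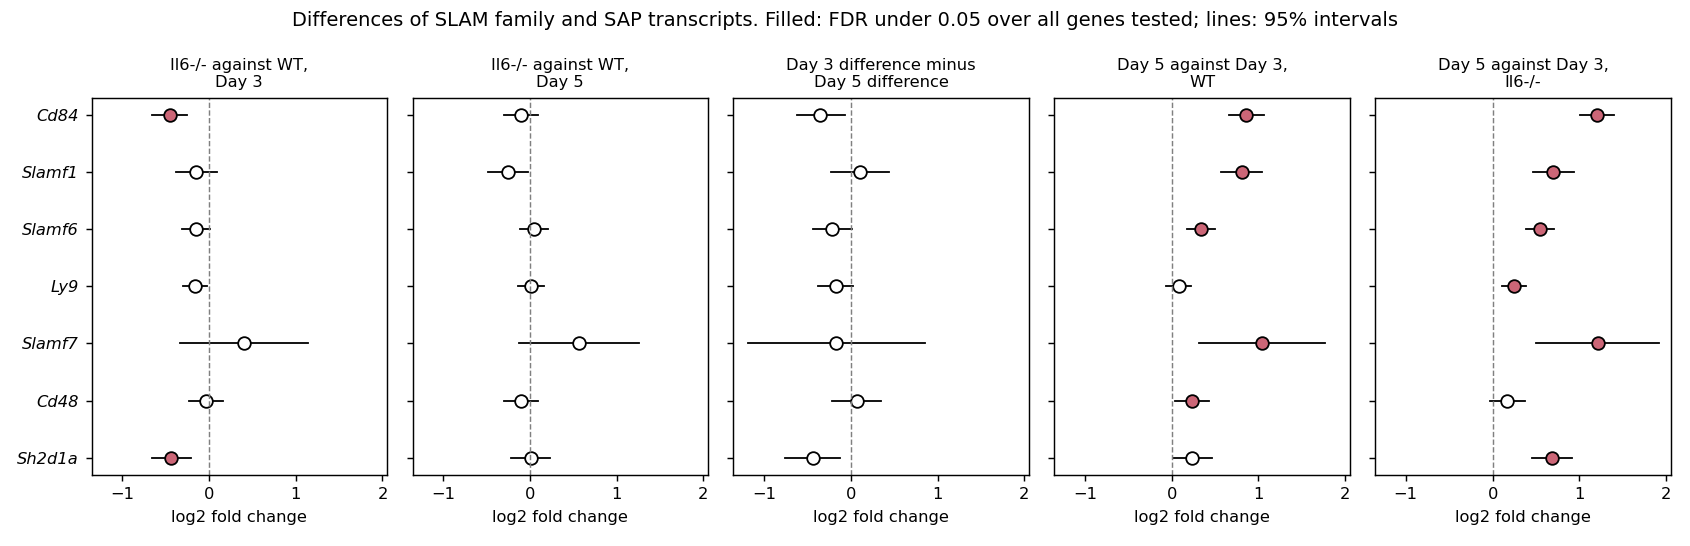
Log2 fold changes (x axis) of the 7 tested genes (y axis) in 5 comparisons, with 95% intervals as lines and filled points where the FDR was under 0.05. Cd84 (-0.45) and Sh2d1a (-0.43) are the filled points between genotypes on Day 3, there are 0 filled points on Day 5 or for the difference between the days, and the points for Day 5 against Day 3 lie to the right of 0.

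A difference past the threshold on Day 3 and not on Day 5 does not by itself show that the days differ, so the difference was tested as an interaction (the Day 3 difference minus the Day 5 difference). With edgeR, DESeq2 and limma-voom 0 of the 7 genes passed, and 2 had an unadjusted p under 0.05 in edgeR. They were Sh2d1a (-0.44, SE 0.15, p 0.011, FDR 0.11) and Cd84 (-0.35, SE 0.13, p 0.018, FDR 0.15). The share called over all genes was 4.92%. Sh2d1a passed with the replicate number as a block (FDR 0.014) and without the filter on low counts (FDR 0.015), and had an FDR between 0.054 and 0.1 over the other alternatives that kept all libraries. The numbers were taken to pair the libraries on Day 5, and whether they do on Day 3 is not settled, so its call here depends on the fit.

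The second question is how the family changed with time. In cells from WT recipients 5 of the 7 genes rose from Day 3 to Day 5 and none fell, where 29.5% of all genes tested rose. In cells from Il6-/- recipients 6 of the 7 rose and none fell, against 30.4% of all genes. The medians of the 7 log2 fold changes were 0.34 and 0.68, against 0.09 over all genes in both genotypes. The comparisons in WT and in Il6-/- share no libraries, but they come from 1 model with a shared estimate of spread. Any difference in sorting or library preparation between the days cannot be told apart from time in either of them.

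Cd84 had the smallest FDR of the 7 genes over time and rose by 0.86 on the log2 scale in WT (SE 0.09, FDR 1.6e-06) and by 1.2 in Il6-/- (SE 0.09, FDR 5.9e-08), which are 1.81-fold and 2.31-fold. Slamf1 rose by 0.81 in WT and 0.7 in Il6-/- (FDR 1.8e-05 and 6.3e-05). Slamf6, already the most abundant tailed receptor, rose from 653 ± 7.66 to 826 ± 83.9 CPM in WT and from 586 ± 13.8 to 858 ± 48 CPM in Il6-/- (log2 fold changes 0.34 and 0.55, FDR 0.0013 and 1.5e-05). Its Day 5 libraries had 769, 788 and 923 CPM in WT and 835, 826 and 913 CPM in Il6-/-, all above every library of Day 3. Those of Cd84 and Slamf1 were likewise all higher on Day 5.

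Slamf7 rose 2.06-fold in WT and 2.31-fold in Il6-/- (FDR 0.017 and 0.0055) and remained the least abundant receptor that was tested, with 3.82 ± 0.969 and 5.68 ± 1.15 CPM on Day 5. The WT call was lost without WT Day 3 replicate 1 (FDR 0.082) or without WT Day 5 replicate 2 (FDR 0.073). Some of its reads may belong to Gm37787, an opposite-strand gene with no row in the count files, which overlaps 9.22% of the exon bases of Slamf7.

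The adaptor passed over time in 1 genotype. Sh2d1a rose in Il6-/- from 255 ± 37.1 to 409 ± 46.6 CPM (log2 fold change 0.68, SE 0.11, FDR 5.6e-05), and in WT it went from 344 ± 25 to 407 ± 20.8 CPM without passing (0.24, SE 0.11, FDR 0.061). The test of that difference is the interaction above, which Sh2d1a did not pass (FDR 0.11) except with the replicate block (FDR 0.014) or without the filter (FDR 0.015). In WT its libraries did not overlap between the days, and 5 of 8 alternatives that kept all libraries called it higher on Day 5.

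Ly9 rose in Il6-/- (0.25, SE 0.07, FDR 0.005) from 145 ± 3.99 to 172 ± 6.55 CPM. In WT it had 162 ± 3.54 and 171 ± 6.95 CPM (0.08, FDR 0.34), with 179, 167 and 166 CPM in the libraries of Day 5. Cd48 had 358, 379 and 425 CPM in WT on Day 5 and passed narrowly there (0.24, SE 0.09, FDR 0.042), a call that held in 6 of the 12 fits that left out 1 library and in 4 of 8 other alternatives. In Il6-/- Cd48 had 370, 326 and 387 CPM on Day 5 (0.17, FDR 0.13), overlapping Day 3.

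The small changes between days depend on the scaling of the libraries. With upper-quartile scaling the median of all genes moved from 0.09 to 0.29 in WT and to 0.32 in Il6-/-, and Ly9, Cd48 and Sh2d1a then passed in both genotypes, with Ly9 in WT at 0.27 and thus below that median. With RLE scaling Cd48 did not pass in WT (FDR 0.084). The direction of each of the 7 genes was upward under every scaling tried. Libraries without overlap between the days were found for 63.3% of all genes in WT and 65.8% in Il6-/-. All 8 CD4 T cell markers also rose from Day 3 to Day 5 in both genotypes, and their sum went from 6670 to 7850 CPM up to 12000 to 12200 CPM in WT and from 6070 to 6170 CPM up to 10300 to 11400 CPM in Il6-/-. Markers of other cells moved between the days as well. The marker counts here are to be read against all genes tested. Of those, 29.5% rose and 27.1% fell in WT, and 30.4% rose and 30.1% fell in Il6-/-. Of the NK cell and CD8 T cell markers 2 of 5 tested rose and 1 fell in each genotype. The 1 that fell was Cd8a (-3.51 in WT and -3.2 in Il6-/-, FDR 0.0059 and 0.0063), with at most 32 counts in any library. Cd8b1 did not pass in either genotype (0.04 and -0.1, FDR 0.78 and 0.49). In WT Klrb1c rose by 2.77 on the log2 scale and Eomes by 3.29 (FDR 2.7e-08 and 1.5e-04), and their list summed to 64.4 to 75.6 CPM on Day 3 and 92.7 to 114 CPM on Day 5, without overlap. In Il6-/- Eomes and Tyrobp rose (2.13 and 1.66, FDR 0.0014 and 0.0018), and the sums overlapped. Of the 4 tested B cell and plasma cell markers, Cd79a rose in WT (1.91, FDR 0.0037) and Cd79a and Pax5 in Il6-/- (1.73 and 3.1, FDR 0.0064 and 9.3e-04). Of the 6 tested myeloid and dendritic cell markers 2 rose and 1 fell in WT and 3 rose in Il6-/-. Csf1r was among those that rose (1.09 and 1.55, FDR 0.042 and 0.0081), and Itgam was the 1 that fell in WT (-0.86, FDR 0.047). The part of any of these markers in the rise of the SLAM genes was not tested.

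The level of Sh2d1a was also set against that of the receptors. The ratio of Sh2d1a to the 7 receptors together, in FPKM, was 0.16, 0.167 and 0.174 in the WT libraries of Day 3 and 0.118, 0.138 and 0.138 in the Il6-/- libraries. On Day 5 it was 0.167, 0.178 and 0.152 in WT and 0.158, 0.175 and 0.186 in Il6-/-. The ratio was lower in every Il6-/- library than in any WT library on Day 3 and overlapped on Day 5. With canonical lengths it was 0.679 to 0.744 in WT and 0.511 to 0.606 in Il6-/- on Day 3, again without overlap. Most of that sum is Cd48, which has no tail for SAP to dock on. Against the 6 other receptors, a choice added after the values were seen, the ratio was 0.448, 0.471 and 0.521 in WT and 0.342, 0.409 and 0.458 in Il6-/- on Day 3, and the groups overlapped. They overlapped with canonical lengths too, at 1.46 to 1.68 and 1.15 to 1.52. The separation of the genotypes by this ratio thus depends on counting Cd48. The share of Cd84 in the receptor pool was 2.88, 3.01 and 2.76% in WT and 2.1, 2.55 and 2.06% in Il6-/- on Day 3, and 4.06 to 4.72% and 4.12 to 4.35% on Day 5. With canonical lengths this share was 8.81 to 9.49% in WT and 6.72 to 8.14% in Il6-/- on Day 3 and 12.4 to 14.3% and 12.5 to 13.2% on Day 5. Without Cd48 in the sum it was 8.05 to 8.47% in WT and 6.1 to 7.58% in Il6-/- on Day 3. Cd84 thus took a smaller share in every Il6-/- library of Day 3 by each of these measures. The sum of the 7 receptors overlapped between genotypes on both days, at 340 to 362 FPKM in WT and 310 to 355 in Il6-/- on Day 3. These ratios are built from the values above and were not tested separately.

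**Figure D3:**
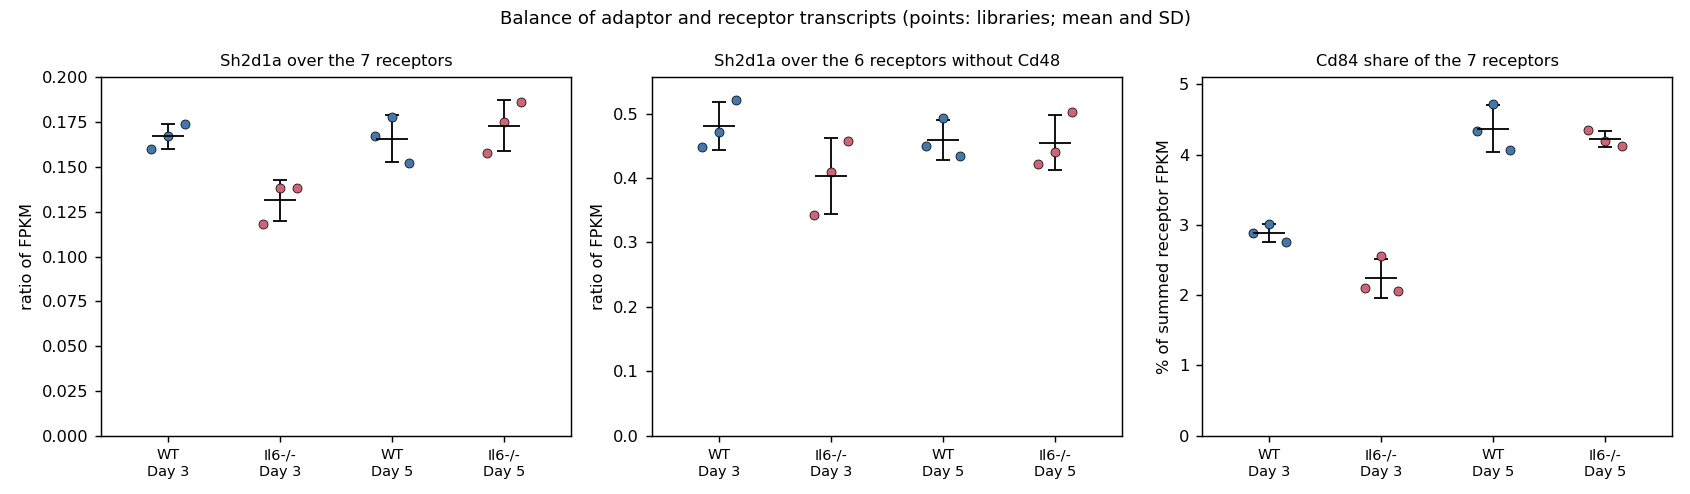
Left, the ratio of Sh2d1a to the summed FPKM of the 7 receptors, center, the ratio to the 6 receptors other than Cd48, and right, the share of Cd84 among the 7 in percent (y axes from 0), with 1 point per library in each group (x axis) and the mean with SD. On Day 3 the Il6-/- libraries reach at most 0.138 on the left and 2.55% on the right, below the lowest WT values of 0.16 and 2.76%, whereas in the center the highest Il6-/- value of 0.458 lies above the lowest WT value of 0.448, and on Day 5 the groups overlap in all panels.

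Cd244a (2B4), the SLAM receptor for CD48 that is known from NK cells and CD8 T cells, was barely detected. It had 3, 1 and 0 counts in WT and 0, 0 and 4 counts in Il6-/- on Day 3, and 0, 0 and 1 in WT and 1, 5 and 0 in Il6-/- on Day 5. A library needs 0.117 to 0.176 CPM to give 3 counts, which limits what can be said of lower levels. No difference was detectable at this depth, and no fold is given. Slamf8 and Slamf9, the other family members in the count files, and Sh2d1b1 and Sh2d1b2, which encode the SAP-related adaptors EAT-2 and ERT, had at most 3 counts in any library.

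Cd2, the other receptor of CD48, was by contrast abundant. On Day 3 it was lower in Il6-/-, at 342 ± 9.58 CPM against 434 ± 32.3 CPM in WT (log2 fold change -0.34, SE 0.08, FDR 0.0098), and 890 ± 33.4 and 780 ± 73 CPM on Day 5 (-0.19, FDR 0.19). Its linkers Cd2ap and Cd2bp2 did not pass on either day.

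The 7 receptor genes lie together on chromosome 1, between 171386708 and 171780737 of GRCm39, a stretch of 394 kb in the order Cd244a, Ly9, Slamf7, Cd48, Slamf1, Cd84 and Slamf6, while Sh2d1a lies on the X chromosome at 41591330 to 41618207. Up to 200 kb to either side of the cluster, 21 other counted genes reached into the stretch and 13 were tested. Of these, 1 was called between genotypes on Day 3, the prefoldin subunit gene Pfdn2, and it was higher (0.43, FDR 0.0028). Among all genes tested 13.7% were called in either direction on that day. None of the 13 was called on Day 5, against 4.61% of all genes tested. Within the cluster the lower Cd84 of Day 3 stood between Slamf1 and Slamf6, which did not pass. Exons of Gm37065, on the opposite strand, overlap 2.71% of the exon bases of Slamf6, where reads may have been left out as ambiguous. Gm37065 itself had at most 282 counts in a library, against 10870 or more for Slamf6.

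**Figure D4:**
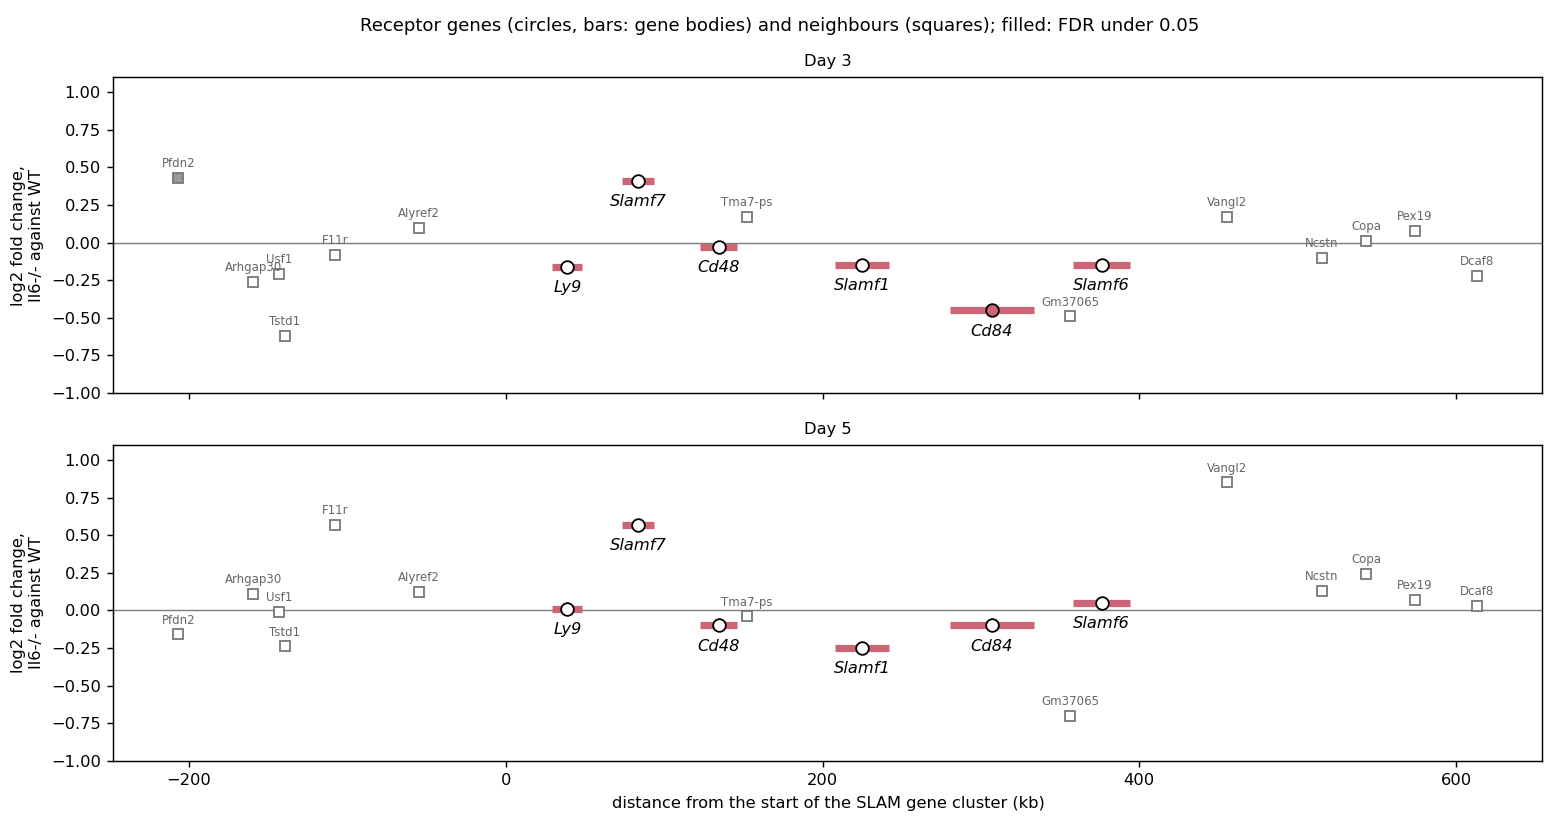
Log2 fold changes between Il6-/- and WT (y axis) of the 6 tested receptor genes (circles with bars for the gene bodies) and of 13 tested neighbors (squares) by distance in kb from the start of the cluster (x axis), for Day 3 above and Day 5 below. Filled symbols have an FDR under 0.05, which are Cd84 and Pfdn2 on Day 3 and 0 genes on Day 5.

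Genes that act with SLAM receptors and SAP were taken from a list of 21 kinases, phosphatases and adaptors, all of which were tested. On Day 3, 5 were lower and 2 higher in Il6-/-, 14 did not pass, and the median log2 fold change was -0.15. Among all genes tested 6.19% were lower and 7.52% higher, with a median of 0.01. Prkcq, the kinase PKC-theta that the SAP and Fyn route engages, was lower in Il6-/-, at 235 ± 14 CPM against 367 ± 6.65 CPM (log2 fold change -0.64, SE 0.08, FDR 1.7e-04). It was the 1 gene of the list that passed the interaction (-0.64, FDR 0.0088), with 296 ± 22.8 and 295 ± 24.7 CPM on Day 5.

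Also lower on Day 3 were the adaptor Dok2 (log2 fold change -0.46, FDR 0.0068), Pstpip1, a cytoskeletal linker that binds the tail of CD2 (-0.34, FDR 0.0088), and the phosphatase Ptprc (CD45, -0.26, FDR 0.012). The phosphatase Ptpn11 (SHP-2), which SAP competes with at the switch motifs, was higher (0.44, FDR 0.029), as was Nfkb1, an NF-kappaB subunit downstream of PKC-theta (0.36, FDR 0.035). Fyn, the kinase that SAP recruits, had 145 ± 45.2 CPM in WT against 108 ± 7.63 CPM in Il6-/- (-0.42, SE 0.16, FDR 0.11). On Day 5 the list had 1 gene called, against 4.61% of all genes tested. It was Rasa1, a negative regulator of Ras, which was lower (-0.77, FDR 0.024), and Fyn had 266 ± 29 and 181 ± 23.5 CPM (-0.56, FDR 0.066).

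Over time, 11 of the 21 rose and 3 fell in WT, where 29.5% of all genes rose and 27.1% fell, and 13 rose and 2 fell in Il6-/-, against 30.4% and 30.1% of all genes. Rises and falls together were not far from the share of all genes, but by direction more of the list rose and less fell. The median log2 fold changes were 0.25 and 0.35, against 0.09 over all genes. Fyn rose in both genotypes (0.88 and 0.74, FDR 3.3e-04 and 0.0013), as did Lck, Cblb and Malt1. Inpp5d (SHIP-1), an inhibitory phosphatase, fell in both (-0.65 and -0.33, FDR 2.4e-04 and 0.026).

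Helper cell genes that SAP is linked to formed a list of 12, of which 11 were tested. On Day 3, 7 were lower in Il6-/-, 1 was higher and 3 did not pass, with a median log2 fold change of -0.63. Among all genes tested 6.19% were lower and 7.52% higher, with a median of 0.01. Lower by more than any SLAM gene were Il21, the signature cytokine of follicular helper cells (log2 fold change -2.82, FDR 8.8e-04), their chemokine receptor Cxcr5 (-1.45, FDR 7.1e-05), their lineage factor Bcl6 (-1.15, FDR 3.8e-04), the costimulator Icos (-1.04, FDR 9.6e-06) and the transcription factor Egr2 (-0.78, FDR 7.8e-04).

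Lef1 and Tcf7, factors that act upstream of Bcl6, were lower as well (-0.42 and -0.32, FDR 0.0029 and 0.0069). Gata3, the Th2 lineage factor, was higher on Day 3 (0.34, FDR 0.023) and was the 1 gene of the list called on Day 5 (0.35, FDR 0.038). Among all genes tested 4.61% were called on Day 5. Bcl6, Cxcr5, Icos and Il21 passed the interaction (FDR 0.014, 0.0035, 0.003 and 0.018), with a greater deficit on Day 3 than on Day 5. The share that passed it among all genes tested was 4.92%. Il4 had 6.91 ± 0.558 and 4.42 ± 3.12 CPM on Day 3 and 6.16 ± 2.41 and 14 ± 8.74 CPM on Day 5, and did not pass on either day (FDR 0.43 and 0.15). Zbtb16 (PLZF), the factor of NKT cells whose development needs SAP, had at most 2 counts in a library.

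**Figure D5:**
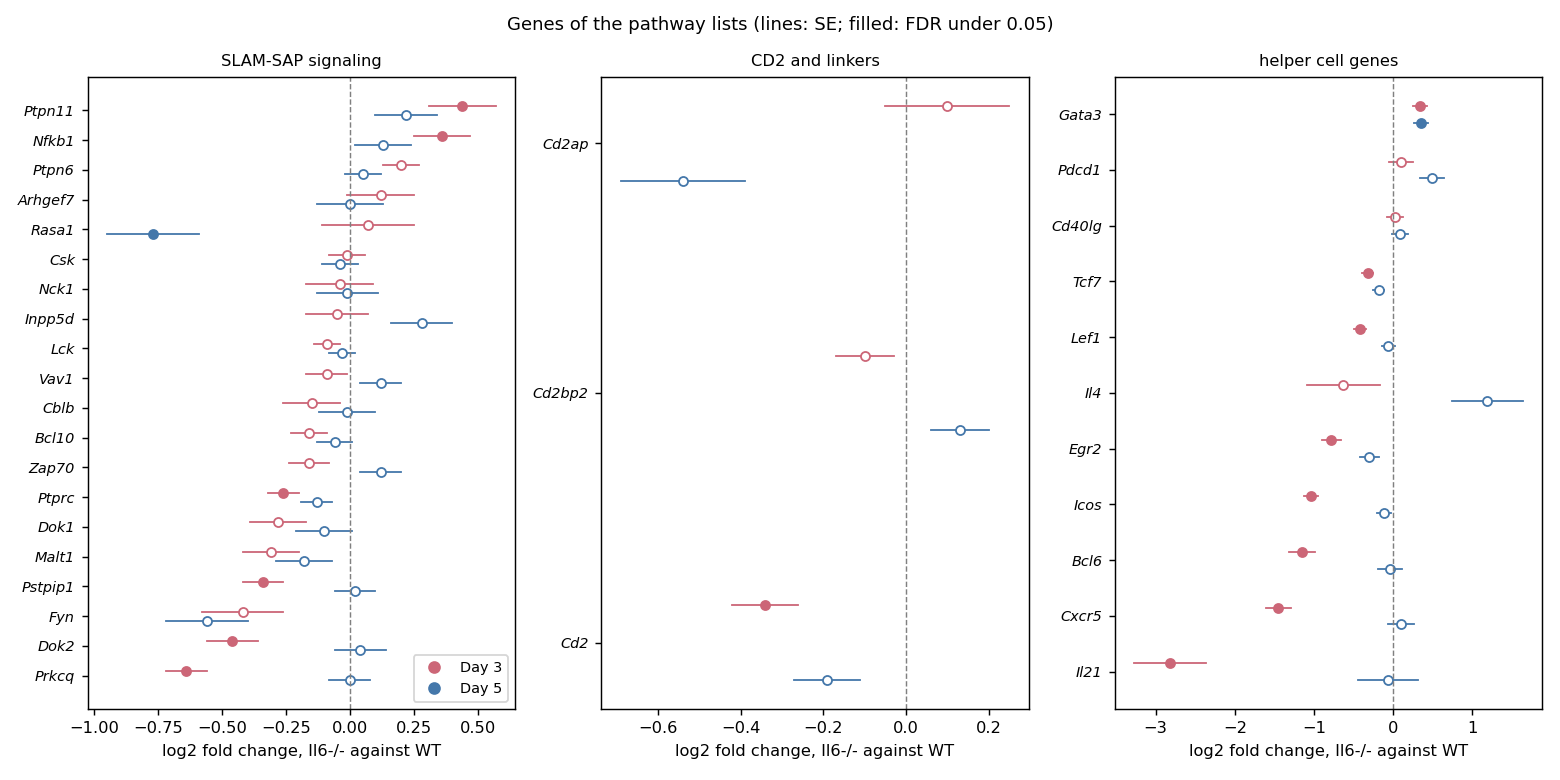
Log2 fold changes between Il6-/- and WT (x axes) on Day 3 (red) and Day 5 (blue) of tested genes (y axes) of the signaling list (all but 1), of CD2 and its linkers and of the helper cell list, with SE as lines and filled points where the FDR was under 0.05. Day 3 holds most filled points, from Prkcq at -0.64, Cd2 at -0.34 and Il21 at -2.82 upward, and Day 5 holds Rasa1 and Gata3.

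Over the 12 libraries, the genes whose log2 CPM followed each SLAM gene most closely were found by Pearson r. For Cd84 they were Abtb1 (r 0.993) and Trbv12-2 (r 0.992), for Sh2d1a Gm30712 (0.978) and S100a4 (0.976), for Slamf6 Gnb5 (0.987) and Ucp2 (0.982), and for Ly9 Arhgap4 (0.982) and Jak3 (0.979). For Slamf1 they were Hyi (0.986) and Gm37004 (0.983), for Cd48 Trav16n (0.936) and Commd3 (0.933), and for Slamf7 Slc26a10 (0.922) and Gm12216 (0.917). No SLAM gene was among the closest 2 of another. The days form separate clusters of libraries, so that r mainly ranks genes by a like difference between days, and no p is given. S100a4 and Gm30712, the closest to Sh2d1a, had larger differences between genotypes on Day 3 (log2 fold changes -2 and -1.86) and small ones on Day 5 (-0.2 and 0.16). Trbv12-2 and Trav16n are variable segments of the T-cell receptor with close copies in the genome, whose reads are uncertain.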

How the data were processed

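The data are single-end reads from ultra-low input poly(A) libraries of OTII cells sorted from the mLN. Per the labels and the methods of the study, the authors used Trim Galore 0.4.4 for trimming, STAR 2.5.2a for alignment to the mouse build GRCm39, and HTSeq 0.6.1p1, unstranded, for the reads of each gene. The deposited files used here hold raw counts for 40840 gene symbols per library. A deposited table of log2 CPM was not used. Reads on no gene, ambiguous or not unique (37.8 to 47.5% per library) were left out of library sizes. The study places the cells in the mLN, which was followed, and the description of the series states that its days are counted from another start than those of the study.

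The analysis used edgeR 4.0.16 under R 4.3.3: filterByExpr on the 4 groups (13570 genes), TMM scaling (factors 0.944 to 1.06), and 1 quasi-likelihood model of all 12 libraries with 1 coefficient per group (median biological coefficient of variation 0.132). A gene was called at a Benjamini-Hochberg FDR under 0.05 over all genes tested. SE is the log2 fold change over the root of F, and intervals are 95%. CPM use TMM-scaled library sizes. FPKM divide CPM by the union of exons in GENCODE vM39, an annotation that may differ from that of the authors. The model was also run on simulated data without paired replicates, and no result above rests on that run. Libraries of a group differed by more than sampling noise (chi-square over degrees of freedom 5.69 to 34.3), and none was a duplicate.

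The genes, lists and tests were chosen with earlier results of these data known. Named were all 8 members, the genes of the other lists and of the marker lists called between genotypes on Day 3 or Day 5 (except 1 of the signaling list, which is not reported here by name), genes of these lists of particular role without a call (Fyn, Il4, Zbtb16, and Lck, Cblb, Malt1, Inpp5d and single markers for time), chosen after their values were seen, the 2 genes most alike to each member, and called genes reaching within 200 kb of the cluster. Replicate numbers are shared by the genotypes. On Day 5 the deviations of same-numbered libraries from their group means correlated at 0.129 to 0.243, and on Day 3 at 0.0325 to 0.0599. Those of differently numbered libraries correlated at -0.182 to -0.0316 on Day 5 and at -0.0683 to 0.0306 on Day 3. The numbers were taken to pair the libraries on Day 5 from these data alone, as no label states it. A fit with number as a block changed no Day 5 call between genotypes among the tested members. Over all genes tested it called 1592 between genotypes on Day 5, against 626 in the main model. The Day 5 results given above for genes that are no members come from the main model, and may differ with the block. Alternatives were RLE, upper-quartile and no scaling, other filters, DESeq2 1.42.0, limma-voom (limma 3.58.1), the libraries compared alone, the block, stricter thresholds and each library left out.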

Additional observations from a re-analysis of the deposited data

How the results depend on the processing

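Of the 7 genes tested, the 2 called between genotypes on Day 3 became 4 when the 6 libraries of that day were fitted alone (Slamf6 and Ly9 were added), 1 at an FDR under 0.01 (Cd84) and 0 with a 2-fold limit, and 1 to 2 when each library was left out. The 5 called between days in WT became 3 at an FDR under 0.01 and 1 with a 2-fold limit (Slamf7), and 3 to 6 when each library was left out. The 6 called between days in Il6-/- became 2 with a 2-fold limit (Slamf7 and Cd84). Counts stayed within 1.5 times of these under the other alternatives, DESeq2 and limma-voom included, and the 0 calls between genotypes on Day 5 stayed 0 under all of them. For the interaction the count of 0 became 1, Sh2d1a, without the filter on low counts (FDR 0.015), and also 1, Sh2d1a again, with the replicate number as a block (separately for each day) (log2 value -0.44, FDR 0.014). On Day 3 the same-numbered libraries correlated at 0.0333, 0.0599 and 0.0325, and differently numbered ones at -0.0683 to 0.0306. Whether the numbers pair the libraries there is not settled. Between genotypes on either day the block changed no call among the 7 genes. No called difference changed its direction under any alternative. The cause of these changes was not tested. Limits: 3 libraries a group, counts of 28 to 123 per library for Slamf7 and of at most 5 for Cd244a, and a length-dependent order between genes, in which the WT Day 3 levels with canonical lengths were 361 FPKM for Sh2d1a, 276 for Cd48, 113 for Slamf6, 64.5 for Ly9, 46.4 for Cd84, 6.47 for Slamf1 and 1.16 for Slamf7.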
